A study of Mus musculus with 8 samples.

Results

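The transcript of p53 and those of 35 genes listed as direct p53 targets were followed in mouse C2C12 cells after knockdown of Atad2. These made 36 genes in all, out of 35976 in the deposited table. Whether p53 controls each of them in these cells was not tested. The 36 genes were taken by symbol from a list of well-described targets, and all of them were found. The genes and their role groups were chosen with earlier results of these data known. Counts of members and of role groups may therefore not be independent of the data. Of 8 libraries, 4 came from C2C12 myoblasts that had received an shRNA against Atad2, a chromatin ATPase with a bromodomain. The other 4, the controls, came from C2C12 myoblasts that had received a non-targeting shRNA. RNA of both groups was taken 48 h after transfection. C2C12 is a single cell line that grows as myoblasts and can fuse into myotubes. The labels give no share of cells that took up the shRNA. They name no further Atad2 shRNA and no rescue, so loss of Atad2 and other shRNA effects cannot be told apart. The labels also do not say that the libraries are separate cultures, so each p-value reflects the scatter among libraries, which may be technical.

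The p53 protein, encoded by Trp53 in the mouse, is a transcription factor that is kept scarce by the ubiquitin ligase Mdm2 and becomes stable after DNA damage, oncogene activity or ribosomal stress. It then binds a DNA element made of a pair of like half-sites and raises genes that halt division, repair DNA, adjust metabolism or trigger apoptosis. Several of these targets, Mdm2 first among them, feed back to lower p53 again. Because p53 is controlled largely at the level of the protein, its transcript alone does not report its activity. In muscle precursors p53 is known for restraining division and for a part in the choice between quiescence, differentiation and death.

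The knockdown was visible in each library. Atad2 stood at 11.87, 11.77, 12.05 and 12.05 in the Atad2 shRNA libraries, against 14.66, 14.74, 14.67 and 14.61 in the control libraries, all as log2(normalized count + 1), the scale used for every level below. Depth, as reads recovered from the table, was 50.3 to 72.3 M reads in the Atad2 shRNA libraries and 61.4 to 73.0 M reads in the control libraries (exact two-sided permutation p = 0.457). Genes with any read numbered 17544 to 17894 in the Atad2 shRNA libraries and 18845 to 18939 in the control libraries, without overlap. The cause of that difference was not tested. For a gene with 0 reads the upper limit was 0.0411 to 0.0596 RPM (reads scaled to the library total), the worth of 3 reads, which covers counting error only. Atad2 shRNA replicate 3 was the odd one out on the second principal component, which held 8.29% of the variance. The myoblast markers Myod1, Myf5, Des, Cdh15 and Pax7 summed to 684 to 758 RPM in the Atad2 shRNA libraries and 647 to 685 in the control libraries. The sum is carried by Des and Myod1, which rose by 0.38 and 0.25 on the log2 scale, while Myf5, Cdh15 and Pax7 changed by -1.28, -0.96 and -3.27 (limma adjusted p at most 0.0004 for all 5). Pax7 rests on few reads, 0 to 12 in the Atad2 shRNA libraries and 19 to 41 in the control libraries. Markers of differentiating muscle (Myog, Mymk, Myh3, Acta1, Ckm and Mylpf) summed to 15.2 to 20.9 RPM in the Atad2 shRNA libraries and 7.63 to 10.9 RPM in the control libraries. Of these 6, Myog, Mymk, Myh3 and Mylpf rose by 2.15 to 5.44 on the log2 scale, Acta1 did not pass (-0.09, limma adjusted p = 0.53) and Ckm, at 0 to 8 reads, was not tested. Myh3, with the largest rise, had 113 to 235 reads in the Atad2 shRNA libraries but only 1 to 9 in the control libraries. The part of these muscle genes in the results below was not tested. Among listed markers of leukocytes, adipocytes and epithelia, Adgre1, Cd3e, Adipoq, Lep and Epcam had no reads in any library. Of 6 leukocyte markers 4 had any read, of 5 endothelial markers 5, of 5 adipocyte markers 3 and of 5 epithelial markers 4. In the Atad2 shRNA libraries their sums were 7.64 to 9.83 RPM for leukocytes, 0.437 to 0.775 for endothelium, 0.0584 to 0.298 for adipocytes and 0.0438 to 0.221 for epithelia. In the control libraries they were 3.54 to 4.29, 0.726 to 1.01, 0.534 to 0.651 and 0.757 to 1.36 RPM for the same 4 lists. The leukocyte sum was carried by Cd68, at 424 to 552 reads in the Atad2 shRNA libraries and 215 to 313 in the control libraries. Of the 21 genes in these lists, the test was passed by Cd68, a lysosomal membrane protein gene (1.17 on the log2 scale), by Fabp4, a fatty acid binding protein gene (-1.80), and by Cdh1, the E-cadherin gene (-3.25). Kdr, Tek and Vwf were tested and did not pass, and the rest of these genes were too weak to be tested.

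Letters that match the p53 element were looked for near the start sites. Promoter windows from RefSeq (GRCm38.p6, the assembly behind mm10), each with 250 bases before and 50 after an annotated start, were matched by symbol for 28 of the 36 genes. They were searched on both strands for the p53 half-site, a consensus of 10 bases with a C and a G at its core that reads the same on both strands. At least 1 perfect half-site was present in the windows of 11 of the 28 genes (39.3%), against 9.55% of all 27025 genes with a window. A pair of adjoining half-sites, with the C and the G of each core in place and at most 3 mismatches to the consensus of 20 bases was present for 7 of the 28 genes (25%), against 1.63% of all genes. With at most 1 mismatch it was present for 2 of the 28, against 0.0814% of all genes. These matches are letters in a window, not measured binding, and p53 elements farther from the start were outside the search. The genes were listed because they are described as p53 targets, so the excess of matches over all genes is not a result of these data. The windows also differed in base content, with a median of 64.7% G and C for members against 52.7% for all windows. The part of base content in the matches was not tested.

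The paired elements of these 7 genes are given 5′ to 3′ on the strand of the gene, with the 4 core bases of each half-site in capitals (the C, the G and the pair between them, in which a mismatch was allowed), to show how closely each matches the element. Ccng1 and Rps27l have 1 mismatch and the others have 3.
Ccng1: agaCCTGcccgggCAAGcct
Rps27l: gggCTTGttgagaCTTGtcc
Aen: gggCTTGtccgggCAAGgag
Bbc3: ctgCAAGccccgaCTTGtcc
Sesn1: aagCTTGtttttgCTGGcct
Tigar: ggtCTAGctctggCAAGact
Trp53: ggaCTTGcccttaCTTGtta

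The Ccng1 element lies at chr11:40755462-40755481 on the minus strand, -195 to -176 bases from the start, and the Rps27l element at chr9:66946296-66946315 on the plus strand, -117 to -98 bases from a start. The Trp53 element lies at chr11:69580284-69580303, -75 to -56 bases from a start of the p53 gene itself. In the whole Ccng1 window (chr11:40755237-40755536, minus strand), shown because Ccng1 had a site with 1 mismatch and also fell clearly, the element is in capitals.
Ccng1 promoter: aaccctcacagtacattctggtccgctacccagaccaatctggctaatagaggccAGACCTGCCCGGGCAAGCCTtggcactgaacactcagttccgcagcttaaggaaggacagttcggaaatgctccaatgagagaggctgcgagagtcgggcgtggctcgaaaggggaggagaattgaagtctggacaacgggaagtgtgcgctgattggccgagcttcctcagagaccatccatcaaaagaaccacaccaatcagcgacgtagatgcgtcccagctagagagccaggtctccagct

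Of the 7 genes with a paired element, Trp53 rose, Ccng1, Rps27l and Bbc3 fell, and Aen, Sesn1 and Tigar did not pass the test. Genes of all 3 outcomes thus had a match.

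The p53 network did not move as a block. All 36 genes had a mean level above 3 over the 8 libraries, and above 3 in each group, and so entered the test (limma with an intensity trend, adjusted p under 0.05 over all 14703 genes tested). In the Atad2 shRNA libraries 10 genes rose, 16 fell and 10 did not pass (without Atad2 shRNA replicate 3, 9 rose and 15 fell). Among all genes tested 30.8% rose and 29.6% fell, 60.4% together, so the share of members that rose (27.8%) lay near that of all genes, and the share that fell (44.4%) above it. The median log2 fold change, Atad2 shRNA over control shRNA, was -0.13 for the 36 genes and -0.01 for all genes tested. A change of at least 0.5 on the log2 scale was reached by 2 members that rose, Gadd45a and Steap3, and by 8 that fell. Those shares were 5.56% and 22.2% of the members, against 6.87% and 15.7% of all genes tested. The values of the groups did not overlap for 23 of the 36 (63.9%), 8 of them higher and 15 lower, against 53.5% of all genes tested, 27.7% higher and 25.8% lower. In bulk RNA, fewer cells that express a gene and less RNA of it per cell cannot be told apart.

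**Figure D1:**
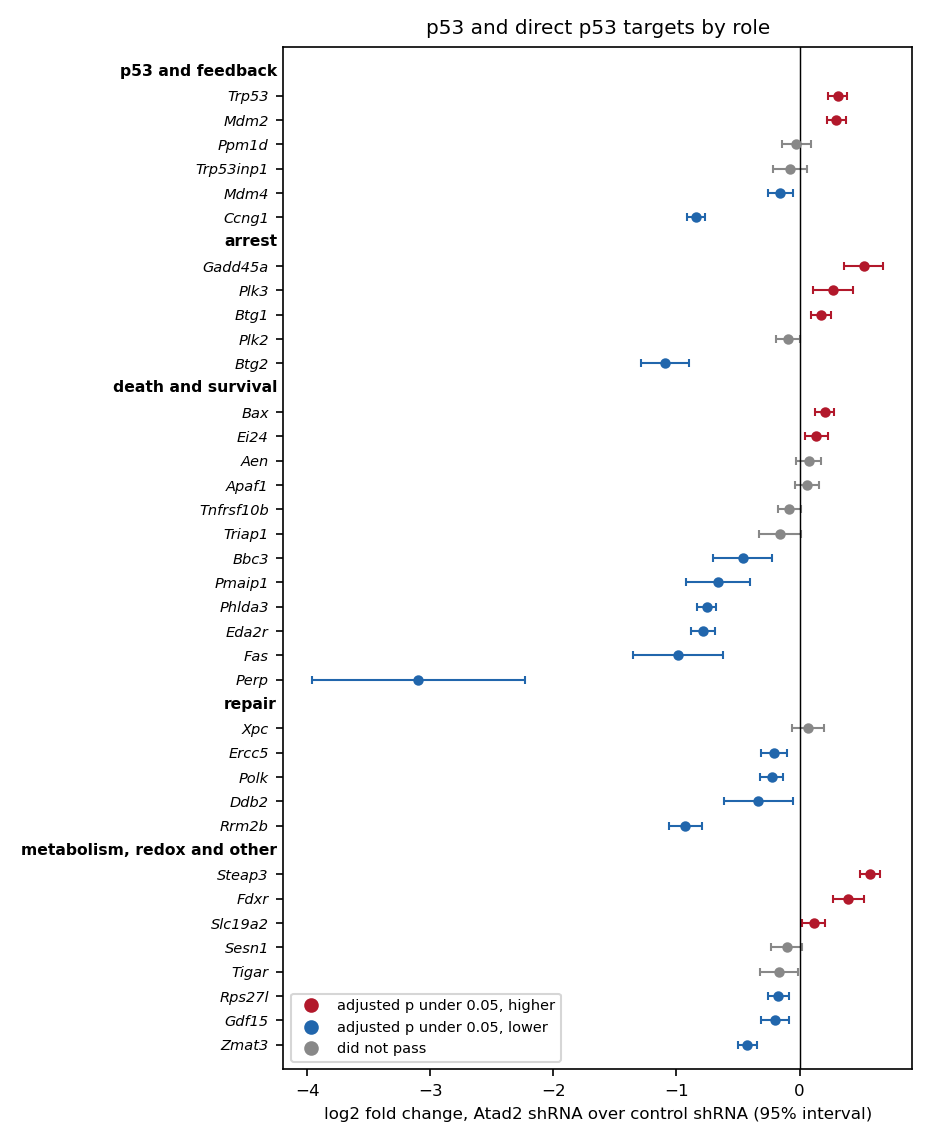
Log2 fold change of each of the 36 genes (Atad2 shRNA over control shRNA, n = 4 libraries each) with its 95% interval from limma, grouped by role. Trp53 and Mdm2 lie right of 0, while Perp, Btg2, Fas, Rrm2b and Ccng1 lie farthest left.

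The gene of p53 itself and that of its main inhibitor rose together, by a similar small amount. Trp53 (chromosome 11, 69580348 to 69591873, GRCm38) stood at 13.93, 13.87, 13.82 and 13.81 in the Atad2 shRNA libraries, against 13.63, 13.46, 13.55 and 13.55 in the control libraries. Each Atad2 shRNA library lay above each control library, and the log2 fold change was 0.31 ± 0.04 (SE), a ratio of 1.24 (95% interval 1.18 to 1.31, limma adjusted p = 3.1e-07). Mdm2 (chromosome 10, 117688875 to 117710758), whose product marks p53 for degradation, stood at 13.53, 13.44, 13.58 and 13.39 in the Atad2 shRNA libraries, against 13.14, 13.20, 13.21 and 13.19 in the control libraries. Its groups did not overlap either, with a log2 fold change of 0.30 ± 0.04 and a ratio of 1.23 (1.17 to 1.30, limma adjusted p = 7.8e-07). Both calls held in each of the 17 alternative settings, but with quantile normalization the changes were smaller, 0.20 for Trp53 and 0.20 for Mdm2. The annotation also holds processed copies, Trp53-ps and Mdm4-ps, whose reads may be mixed with those of Trp53 and Mdm4.

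The other genes that act back on p53 fell or did not pass. Ccng1 (chromosome 11, 40748552 to 40755309; cyclin G1, which recruits a phosphatase to Mdm2) was the member of this role that fell most. It stood at 14.02, 14.01, 14.04 and 14.17 in the Atad2 shRNA libraries, against 14.85, 14.93, 14.87 and 14.95 in the control libraries. The gap between the groups was far wider than the spread within either, and the log2 fold change was -0.84 ± 0.04 (limma adjusted p = 3.9e-14). Mdm4, the relative of Mdm2 that masks the activation domain of p53, fell by 0.16 on the log2 scale, with overlapping groups (12.16 ± 0.06 with Atad2 shRNA against 12.32 ± 0.11 with control shRNA, SD, n = 4 each, limma adjusted p = 0.0083). The Mdm4 call was lost without the filter on low values (limma adjusted p = 0.156) and without the variance trend (0.0677). Over all alternatives its p ran between 0.000441 and 0.156, and with quantile normalization the change was -0.24. Ppm1d, a phosphatase gene that ends p53 signalling, stood at 10.37 ± 0.04 with Atad2 shRNA against 10.40 ± 0.09 with control shRNA, a difference of -0.03 with a 95% interval of -0.15 to 0.10. Trp53inp1, which promotes the death-directed form of p53, stood at 11.84 ± 0.17 with Atad2 shRNA against 11.92 ± 0.12 with control shRNA (-0.08, interval -0.22 to 0.06). Of the 6 in this role, 2 rose and 2 fell while 2 did not pass, against 30.8% higher and 29.6% lower among all genes tested.

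**Figure D2:**
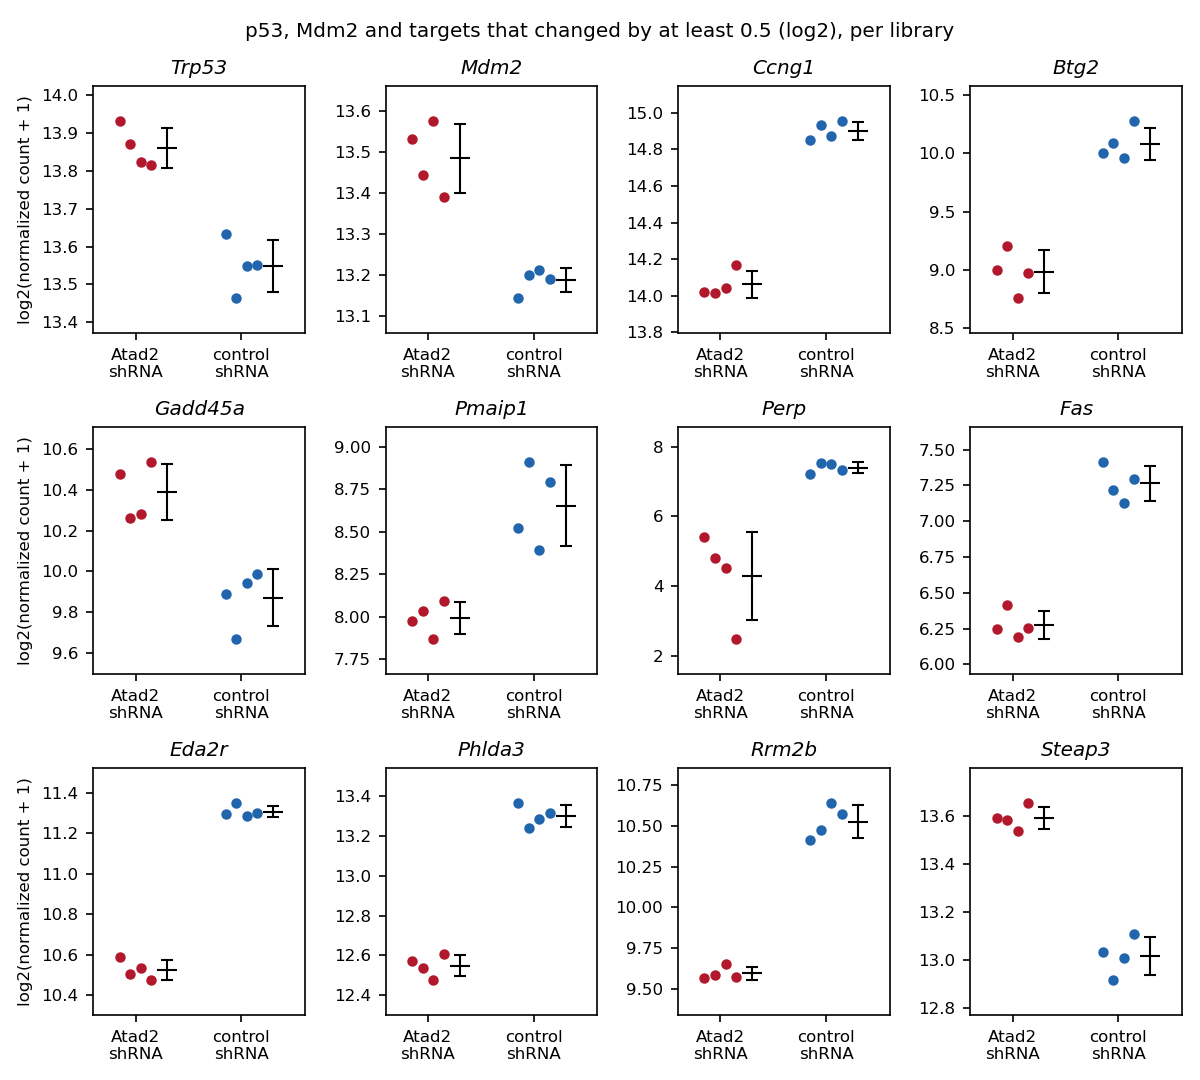
Log2(normalized count + 1) of Trp53, Mdm2 and the 10 members that changed by at least 0.5 on the log2 scale, each point a library, with mean ± SD beside it (n = 4 each, Atad2 shRNA left and control shRNA right; each panel has its own axis, which does not start at 0). No panel has overlapping groups, and Perp in the Atad2 shRNA libraries has the widest spread, from 2.49 to 5.40.

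Genes that slow or halt division pointed in opposite directions, with 3 of 5 higher, 1 lower and 1 that did not pass (30.8% higher and 29.6% lower among all genes tested). With quantile normalization the split was 2 higher and 2 lower. Btg2 (chromosome 1, 134074865 to 134079155), an antiproliferative gene that also acts in mRNA decay, stood at 8.999, 9.209, 8.76 and 8.97 in the Atad2 shRNA libraries, against 10.004, 10.09, 9.96 and 10.28 in the control libraries. All Atad2 shRNA libraries were lower, with a log2 fold change of -1.10 ± 0.09 (ratio 0.468, 95% interval 0.409 to 0.535, limma adjusted p = 2.3e-09). Gadd45a (chromosome 6, 67035096 to 67037407), a damage-induced gene of the G2 checkpoint, stood at 10.48, 10.26, 10.28 and 10.54 in the Atad2 shRNA libraries, against 9.89, 9.67, 9.94 and 9.98 in the control libraries. It was higher without overlap, by 0.52 ± 0.08 (limma adjusted p = 7.4e-06). In the annotation 19.1% of its exon bases are shared with the opposite-strand gene E230016M11Rik, and although the library kit was directional, the strand setting of the counting is not given, so their reads may be mixed. Smaller opposite-strand overlaps were found for Ei24 (6.66% of exon bases), Tigar (3.34%) and Plk3 (3.32%).

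Btg1, the close relative of Btg2, rose by 0.17 ± 0.04, to 13.43 ± 0.09 in the Atad2 shRNA libraries, against 13.26 ± 0.02 in the control libraries (limma adjusted p = 0.00057). The opposite calls of this pair of relatives depended in part on scaling, since with quantile normalization Btg1 no longer passed (0.07, limma adjusted p = 0.0881, alternatives 2.66e-06 to 0.0881). Annotated copies named Btg1-ps1 and Btg1-ps2 make the share of Btg1 reads uncertain. The polo-like kinase gene Plk3 rose by 0.27 ± 0.08, with overlapping groups (9.87 ± 0.14 with Atad2 shRNA against 9.59 ± 0.09 with control shRNA, limma adjusted p = 0.0051), and its relative Plk2 stood at 12.25 ± 0.08 with Atad2 shRNA against 12.35 ± 0.08 with control shRNA (limma adjusted p = 0.078). Plk2 passed as lower without Atad2 shRNA replicate 2 (limma adjusted p = 0.0347), without control replicate 3 (0.0147) and with quantile normalization (0.0013). The highest p among its alternatives was 0.394. The Plk3 call was lost without the filter on low values (limma adjusted p = 0.0606, range 0.00033 to 0.0606).

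Among 12 genes of death and survival there were 6 that fell, 2 that rose and 4 that did not pass, and the median change was -0.31 on the log2 scale. Among all genes tested 29.6% fell and 30.8% rose, and the median was -0.01. With quantile normalization 6 fell and 1 rose. Bax, the pore-forming gene of the mitochondrial pathway, was among those that rose, while the BH3-only genes Bbc3 and Pmaip1 fell. The Bbc3 call was lost with quantile normalization.

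At the cell surface, Perp (chromosome 10, 18845071 to 18857073), a tetraspan membrane protein gene linked to apoptosis and to desmosomes, had the largest change of all 36 genes. It stood at 5.40, 4.796, 4.51 and 2.49 in the Atad2 shRNA libraries, against 7.21, 7.53, 7.51 and 7.33 in the control libraries. These levels rest on 45, 28, 17 and 4 reads in the Atad2 shRNA libraries, against 156, 183, 196 and 189 in the control libraries. Each Atad2 shRNA library lay below each control library, and the log2 fold change was -3.10 ± 0.41 (limma adjusted p = 1.8e-06), which makes Perp 8.56-fold lower, with a 95% interval of 0.0642 to 0.213 for the ratio. Without Atad2 shRNA replicate 4, its lowest library, the log2 fold change was -2.49. Cdh1, an epithelial marker, was lower too, at 2 to 15 reads in the Atad2 shRNA libraries and 46 to 86 in the control libraries. The other 4 epithelial markers had 0 to 4 reads in any library, with Epcam at 0, and the part of epithelial genes in the Perp result was not tested. Fas (chromosome 19, 34290647 to 34327775), the death receptor for Fas ligand, stood at 6.25, 6.41, 6.19 and 6.25 in the Atad2 shRNA libraries, against 7.41, 7.22, 7.13 and 7.29 in the control libraries. It was lower without overlap (-0.99 ± 0.18, limma adjusted p = 5.9e-05), and with quantile normalization the change was -0.56. Its counts were 56 to 88 reads in the Atad2 shRNA libraries and 147 to 184 in the control libraries.

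Eda2r (chromosome X, 97333837 to 97377234), a receptor of the tumour necrosis factor receptor family that binds ectodysplasin A2, stood at 10.59, 10.50, 10.54 and 10.48 in the Atad2 shRNA libraries, against 11.29, 11.35, 11.28 and 11.30 in the control libraries. Its groups were tightly clustered and far apart (-0.78 ± 0.05, limma adjusted p = 9.9e-12). Tnfrsf10b, the receptor for the death ligand TRAIL, did not pass, at 11.54 ± 0.02 in the Atad2 shRNA libraries and 11.62 ± 0.09 in the control libraries (-0.08, 95% interval -0.18 to 0.01). With quantile normalization it passed as lower (-0.14, limma adjusted p = 0.0093, alternatives 0.0093 to 0.43). Phlda3 (chromosome 1, 135766085 to 135769134), which encodes a small protein that competes with AKT for membrane lipids, stood at 12.57, 12.54, 12.48 and 12.60 in the Atad2 shRNA libraries, against 13.37, 13.24, 13.28 and 13.32 in the control libraries. It was lower in every Atad2 shRNA library (-0.75 ± 0.04, ratio 0.593, limma adjusted p = 2.7e-13).

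Within the mitochondrial pathway, Pmaip1 (NOXA, a BH3-only protein) stood at 7.97, 8.03, 7.87 and 8.09 in the Atad2 shRNA libraries, against 8.52, 8.91, 8.39 and 8.79 in the control libraries. The control libraries spread more widely than the Atad2 shRNA libraries, but without overlap (-0.66 ± 0.12, limma adjusted p = 0.00011), and with quantile normalization the change was -0.43. Bbc3 (PUMA, another BH3-only protein) stood at 7.93 ± 0.12 with Atad2 shRNA against 8.39 ± 0.09 with control shRNA (-0.46 ± 0.12, limma adjusted p = 0.0018). With quantile normalization the Bbc3 difference shrank to -0.20 and its call was lost (limma adjusted p = 0.151, alternatives 0.00136 to 0.151). Bax stood at 12.79 ± 0.06 with Atad2 shRNA against 12.58 ± 0.05 with control shRNA (0.20 ± 0.04, limma adjusted p = 9.9e-05), and with quantile normalization the change was 0.11, still called. In the annotation 12.2% of Bax exon bases are shared with the same-strand gene model Gm45808.

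The remaining death and survival genes moved little. Ei24, a gene of the endoplasmic reticulum membrane, rose by 0.14 ± 0.05 with overlapping groups (11.45 ± 0.03 with Atad2 shRNA against 11.31 ± 0.08 with control shRNA, limma adjusted p = 0.014). The Ei24 call was lost without control replicate 1 (limma adjusted p = 0.0549), with no filter on low values (0.0563) and with quantile normalization (0.124). Its lowest p among the alternatives was 0.00374. Apaf1, the scaffold of the apoptosome, stood at 11.02 ± 0.05 with Atad2 shRNA against 10.96 ± 0.03 with control shRNA (0.06, 95% interval -0.04 to 0.16). Aen, an apoptosis-enhancing nuclease gene, stood at 11.50 ± 0.09 with Atad2 shRNA against 11.42 ± 0.05 with control shRNA (0.07, interval -0.03 to 0.17), and passed as higher without Atad2 shRNA replicate 4 (limma adjusted p = 0.0407, range 0.0407 to 0.77). Triap1, which restrains apoptosis, stood at 9.15 ± 0.10 with Atad2 shRNA against 9.31 ± 0.03 with control shRNA and did not pass although its groups did not overlap (-0.16, limma adjusted p = 0.098). It passed as lower without the variance trend (limma adjusted p = 0.0322, range 0.0322 to 0.73).

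Among the repair genes 4 of 5 fell, none rose and 1 did not pass, where 29.6% of all genes tested fell and 30.8% rose. The count that fell was 3 with quantile normalization, where Ddb2 lost its call, and 3 or 4 when a library was left out. Rrm2b (chromosome 15, 37923952 to 37961119), the p53-induced small subunit of ribonucleotide reductase that supplies nucleotides for repair, changed most. It stood at 9.57, 9.59, 9.65 and 9.57 in the Atad2 shRNA libraries, against 10.41, 10.48, 10.64 and 10.57 in the control libraries. Its level in each Atad2 shRNA library was below that of any control library (-0.93 ± 0.06, ratio 0.525, 95% interval 0.478 to 0.576, limma adjusted p = 9.9e-11). Of its exon bases 8.04% are shared with an antisense gene, Gm49085.

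Smaller decreases were measured for Polk, a polymerase gene of synthesis across damaged bases (11.15 ± 0.05 with Atad2 shRNA against 11.38 ± 0.06 with control shRNA, -0.23 ± 0.05), and for Ercc5, a nuclease gene of nucleotide excision repair (10.62 ± 0.03 with Atad2 shRNA against 10.83 ± 0.04 with control shRNA, -0.21 ± 0.05). Neither had overlapping groups (limma adjusted p = 0.00024 for Polk and 0.0011 for Ercc5). The pair of damage recognition genes of the same repair pathway was less clear. Xpc stood at 10.30 ± 0.07 with Atad2 shRNA against 10.24 ± 0.08 with control shRNA (0.07, 95% interval -0.06 to 0.19). Ddb2 stood at 7.89, 7.64, 7.80 and 8.29 in the Atad2 shRNA libraries, against 8.16, 8.34, 8.22 and 8.23 in the control libraries, so that Atad2 shRNA replicate 4 lay within the range of the controls (-0.33 ± 0.14, limma adjusted p = 0.04). The Ddb2 call held in 6 of 17 alternatives. It was lost without any single library other than Atad2 shRNA replicate 4 (limma adjusted p = 0.0516 to 0.144 for those 7), and with quantile normalization the difference was -0.05 (limma adjusted p = 0.757, alternatives 0.00362 to 0.757). Of the Ddb2 exon bases 23.8% are shared with the opposite-strand gene Acp2.

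Among the 8 genes of metabolism, redox balance and other functions, 3 rose, 3 fell and 2 did not pass (30.8% higher and 29.6% lower among all genes tested). With quantile normalization 2 rose and 3 fell. Steap3 (chromosome 1, 120226414 to 120271081), a metalloreductase gene of endosomal iron uptake that also acts in secretion, stood at 13.59, 13.58, 13.54 and 13.65 in the Atad2 shRNA libraries, against 13.04, 12.92, 13.01 and 13.11 in the control libraries. It rose in all Atad2 shRNA libraries, by 0.57 ± 0.04 (ratio 1.49, 95% interval 1.41 to 1.57, limma adjusted p = 4.9e-11), the largest increase among the 36 genes. Fdxr, the mitochondrial ferredoxin reductase gene needed for iron-sulfur clusters, rose by 0.40 ± 0.06 without overlap (10.52 ± 0.09 with Atad2 shRNA against 10.12 ± 0.06 with control shRNA, limma adjusted p = 1.0e-05).

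Slc19a2, a thiamine transporter gene, rose by 0.11 ± 0.04 (11.34 ± 0.03 with Atad2 shRNA against 11.23 ± 0.06 with control shRNA, limma adjusted p = 0.032), a call that held in 10 of 17 alternatives. Leaving out Atad2 shRNA replicate 3 (limma adjusted p = 0.054), Atad2 shRNA replicate 4 (0.0606), control replicate 3 (0.088) or control replicate 4 (0.1) ended it, as did no filter on low values (0.0509) and quantile normalization (0.228). Its lowest p among the alternatives was 0.0177. Zmat3, which encodes an RNA-binding protein, fell by 0.42 on the log2 scale, to 12.40 ± 0.07 with Atad2 shRNA against 12.82 ± 0.03 with control shRNA (limma adjusted p = 3.6e-09). Gdf15, a secreted stress cytokine gene, fell by 0.20 (11.05 ± 0.12 with Atad2 shRNA against 11.25 ± 0.02 with control shRNA, limma adjusted p = 0.0031), and of the 17 alternatives only the absence of a filter on low values ended its call (limma adjusted p = 0.0611, lowest 0.000276).

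Rps27l, a ribosomal protein paralog whose product binds Mdm2, fell by 0.17 (12.05 ± 0.07 with Atad2 shRNA against 12.22 ± 0.06 with control shRNA, limma adjusted p = 0.0013). Its close paralog Rps27 stood at 13.23 ± 0.05 with Atad2 shRNA against 13.30 ± 0.07 with control shRNA (-0.07, 95% interval -0.15 to 0.01). Rps27 passed as lower with quantile normalization (-0.18, limma adjusted p = 0.000162) and without control replicate 2 (0.0406), with a highest p of 0.403 among its alternatives. Reads shared by the 2 genes cannot be told apart. Tigar, which lowers glycolytic flux, stood at 9.44 ± 0.05 with Atad2 shRNA against 9.61 ± 0.10 with control shRNA (-0.17, limma adjusted p = 0.061), and Sesn1, a sestrin gene that restrains mTORC1, at 10.57 ± 0.11 with Atad2 shRNA against 10.67 ± 0.08 with control shRNA (-0.10, limma adjusted p = 0.15). Tigar passed as lower without control replicate 3 (limma adjusted p = 0.0393) and without the variance trend (0.0385), with a highest p of 0.494. Sesn1 passed as lower without Atad2 shRNA replicate 4 (limma adjusted p = 0.022, range 0.022 to 0.439).

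The counts were also taken by level. All 5 members with a mean log2 level of 3 to 9 fell, where 37.8% of all genes in that range fell and 9.85% rose. Bbc3 and Ddb2, which are among these 5, lost their calls with quantile normalization (limma adjusted p = 0.151 and 0.757). Among 13 members at 9 to 11, 3 rose and 4 fell, against 27.5% and 31.5% of all genes there. At 11 to 13, 3 of 13 members rose and 6 fell, while 46.9% of all genes in that range rose and 22.3% fell. Above 13, 4 of 5 members rose (Trp53, Mdm2, Btg1 and Steap3) and Ccng1 fell, against 57.8% and 20.2% of all genes. No test of these differences was made.

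**Figure D3:**
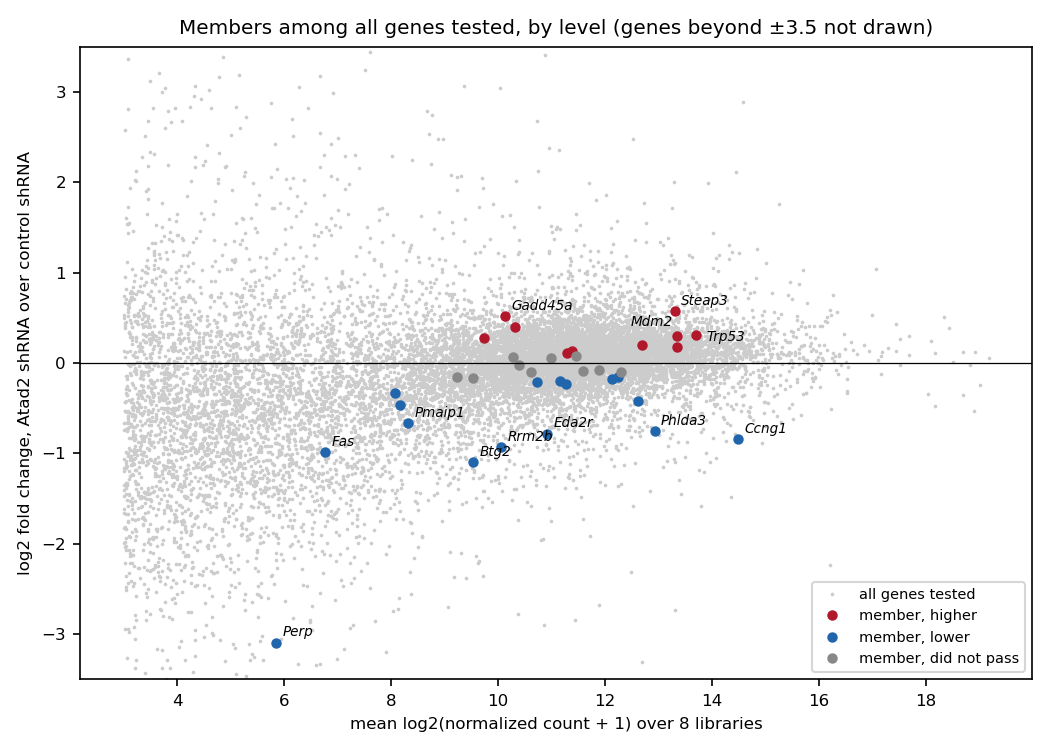
Log2 fold change (Atad2 shRNA over control shRNA) against the mean log2(normalized count + 1) over 8 libraries, with all 14703 genes tested in grey and the 36 members coloured by call. Ccng1 and Phlda3 lie low among strongly expressed genes, and Perp and Fas lie at the weak end, where most grey points are also below 0.

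Levels between genes were compared per length, as normalized reads per kilobase of annotated exon. Rps27l (5183), Ccng1 (4874), Bax (4489), Phlda3 (3842) and Trp53 (3678) were the 5 strongest in the Atad2 shRNA libraries. In the control libraries the order was Ccng1 (8716), Phlda3 (6478), Rps27l (5841), Bax (3894) and Trp53 (2966). The same 5 genes thus led in both groups, with Ccng1 and Phlda3 ahead in the control libraries and Rps27l ahead in the Atad2 shRNA libraries. Perp (12.1 normalized reads per kilobase in the Atad2 shRNA libraries, 86.2 in the control libraries) and Fas (37.1 in the Atad2 shRNA libraries, 74.2 in the control libraries) were the 2 weakest in both groups. Btg2 ranked 30 in the Atad2 shRNA libraries and 23 in the control libraries.

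**Figure D4:**
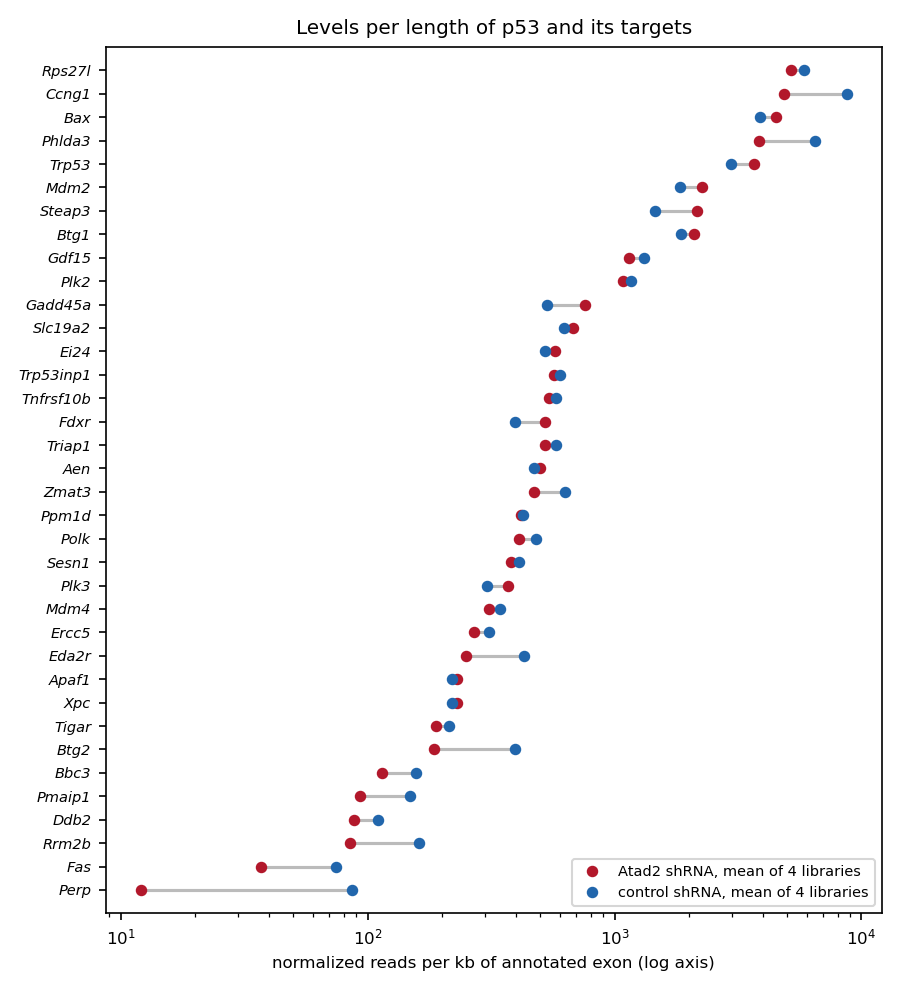
Normalized reads per kilobase of annotated exon (log axis) for the 36 genes, mean of 4 libraries per group, Atad2 shRNA in red and control shRNA in blue, ordered by the Atad2 shRNA level. The levels span from 12.1 (Perp) to 5183 (Rps27l) in the Atad2 shRNA libraries, and the grey bars are longest for Perp, Btg2, Fas and Rrm2b.

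Of the members, Mdm4, Btg2 and Phlda3 lie close together on chromosome 1, with 1.04 Mb between Mdm4 and Btg2 and 1.69 Mb between Btg2 and Phlda3. All 3 fell, where 29.6% of all genes tested did, but Myog, which lies between Btg2 and Phlda3, was 4.45-fold higher. The next closest members on one chromosome, Apaf1 and Btg1 on chromosome 10, are 5.53 Mb apart, and Btg1 rose while Apaf1 did not pass.

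The wider p53 pathway was read from 64 further genes that are not among the 36. Of these, 61 were measured, 21 rose, 19 fell and 21 did not pass, close to the shares of all genes tested (30.8% higher and 29.6% lower). With quantile normalization 18 rose and 25 fell. The 3 genes that were not tested were weak: Cdkn2a, which encodes the Mdm2 inhibitor ARF, had 0 reads in every library, Trp63 had 0 reads in the Atad2 shRNA libraries against 1 to 12 in the control libraries, and Trp73 had 2 to 15 reads in the Atad2 shRNA libraries against 0 to 8 in the control libraries.

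Of 13 damage signalling genes upstream of p53, 5 rose, 2 fell and 6 did not pass, against 30.8% higher and 29.6% lower among all genes tested. Most of those called have a mean log2 level of 11 to 13 or above 13. In these ranges 46.9% and 57.8% of all genes rose, and 22.3% and 20.2% fell. The mediator gene Mdc1 (13.61 ± 0.04 with Atad2 shRNA against 13.33 ± 0.04 with control shRNA), the checkpoint kinase gene Chek1 (10.49 ± 0.04 with Atad2 shRNA against 10.16 ± 0.02 with control shRNA) and H2afx, of the damage-marked histone variant (13.60 ± 0.05 with Atad2 shRNA against 13.43 ± 0.04 with control shRNA), rose by 0.28, 0.34 and 0.17 on the log2 scale. With quantile normalization the changes of Mdc1 and H2afx were 0.19 and 0.08, still called. The damage kinase genes Prkdc and Atr changed by -0.22 and -0.15. Among ligases, cofactors and relatives of p53, 9 of 16 rose, 2 fell and 5 did not pass. Among all genes tested 30.8% rose, and among those with a mean log2 level of 11 to 13 and above 13, where 8 of these 9 lie, 46.9% and 57.8% did. Rpl11, a ribosomal protein gene whose product can bind Mdm2, rose by 0.42 ± 0.04, the acetyltransferase gene Ep300 by 0.33 ± 0.03 and Usp7, which removes ubiquitin from Mdm2 and p53, by 0.31 ± 0.03. Pml, of nuclear bodies, and the ligase gene Rfwd2 (COP1) changed by -0.34 ± 0.04 and -0.20 ± 0.04. All 10 passed, with the weakest limma adjusted p (0.0062) for Atr.

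A further 32 targets of p53 had a median log2 fold change of -0.16, with 15 that fell, 7 that rose and 10 uncalled. Among all genes tested 29.6% fell and 30.8% rose. The best-known target, Cdkn1a, which encodes the cell cycle inhibitor p21, stood at 13.17, 13.15, 13.06 and 13.13 in the Atad2 shRNA libraries, against 13.14, 13.12, 13.07 and 13.22 in the control libraries. The groups overlapped, and the difference was -0.01 with a 95% interval of -0.09 to 0.06, a ratio of 0.943 to 1.05 (limma adjusted p = 0.82). With quantile normalization it passed as lower (-0.12, limma adjusted p = 0.00419), and the other 16 alternatives left it uncalled (highest p 1). Thbs1, of the matrix protein thrombospondin, changed by -1.49 ± 0.05 (limma adjusted p = 8.3e-16), the ephrin receptor gene Epha2 by -0.60 ± 0.04 and the phospholipid transfer protein gene Pltp by -0.86 ± 0.07. Igfbp3, of an insulin-like growth factor binding protein, rose by 2.54 ± 0.10 (9.97 ± 0.10 with Atad2 shRNA against 7.43 ± 0.07 with control shRNA, limma adjusted p = 5.6e-15), Pank1 (coenzyme A synthesis) by 0.59 ± 0.05 and Abhd4 (a lipid hydrolase) by 0.39 ± 0.05.

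**Figure D5:**
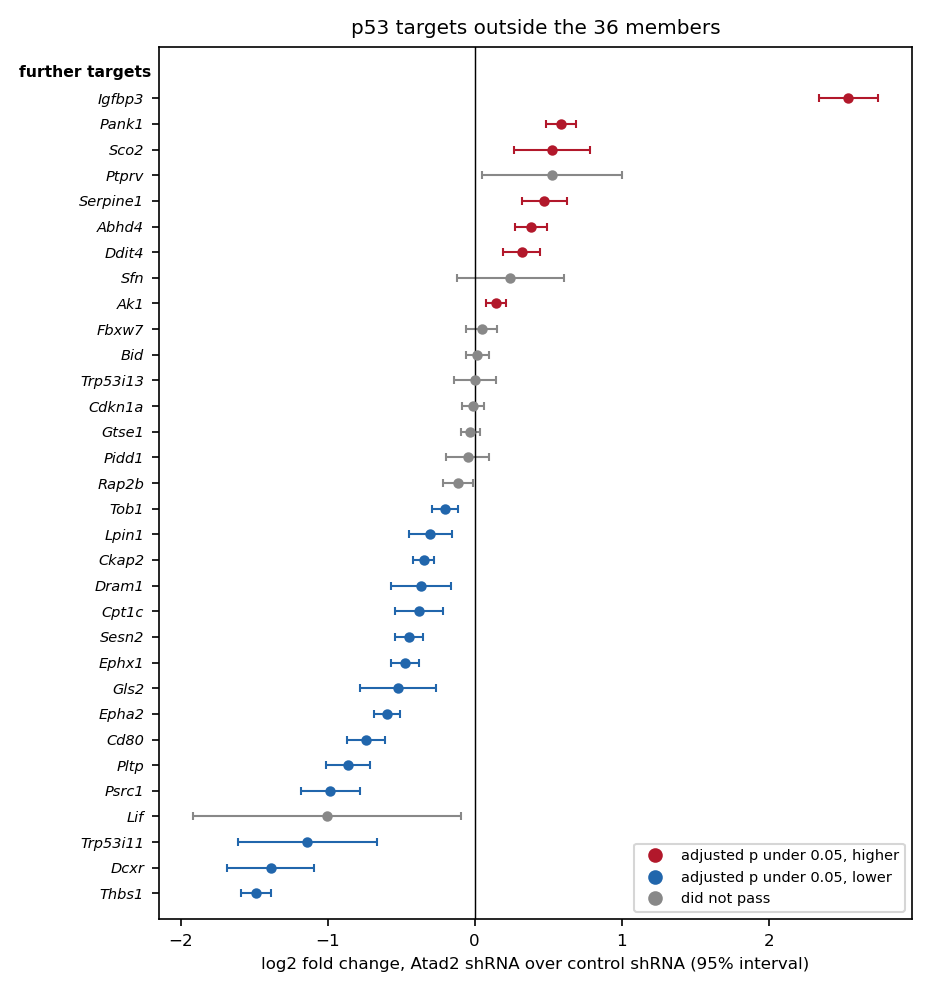
Log2 fold change (Atad2 shRNA over control shRNA, n = 4 libraries each) with its 95% interval for 32 p53 targets outside the 36 members. Igfbp3 lies far right at 2.54, Cdkn1a at -0.01, and Thbs1 farthest left at -1.49.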

How the data were processed

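Total RNA of 8 libraries was sequenced. HTSeq 0.13.5, DESeq2 (no version), SAMtools 1.1, bcl2fastq 2.20 and the mouse build mm10 are named in the submitters' processing notes. The aligner, annotation and strand setting were not given in the sources used here. The authors deposited log2 values of 35976 genes, read from the values as log2(x + 1) of size-factor-normalized counts, with 3 decimals. Low values up to 100 reads lay within 0.1 of whole multiples of 1 step per library (100% of them), from which reads were recovered, so high counts are approximate. All columns were mapped to samples.

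For genes with a mean above 3, limma 3.58.1 was run in R 4.3.3 (lmFit, eBayes with trend, two-sided, Benjamini-Hochberg over all genes tested). The fitting code was run on simulated counts with known changes in a small part of the genes. In the real data 60.4% of the genes tested passed, so that run does not bear on so broad a change. Tables and plots used Python 3.11.15, NumPy 2.4.6, pandas 2.3.3, SciPy 1.17.1 and matplotlib 3.10.9. Exon lengths and overlaps came from GENCODE M21 and coordinates and promoters from RefSeq, both on GRCm38. The members, role groups and lists were chosen with earlier results of these data known. Values per library are given for Trp53, Mdm2, Cdkn1a and each member that changed by 0.5 or more (log2), and for Perp reads and Ddb2 chosen after their values were seen. From each wider list up to 3 genes higher and 3 lower are named, by adjusted p. The 17 alternatives comprised median centring, quantile normalization, a filter at 5, no filter, 8 as the offset instead of 1, no variance trend, limma-voom on the recovered reads, the replicate block, leaving out each library, and an adjusted p under 0.01.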

Additional observations from a re-analysis of the deposited data

Results flagged for a closer look

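Within each group of 4 libraries, the 36 genes were searched for a library that lies far from the other 3 by the 95% critical value of Dixon's gap-to-range ratio. Of 72 sets of 4 values, 3 did so, while chance gives about 1 in 20. Plk3, a kinase gene, was at 9.656 in Atad2 shRNA replicate 4 and at 9.927 to 9.957 in the other 3 Atad2 shRNA libraries. Bbc3 was at 8.520 in control replicate 2 and at 8.333 to 8.355 in the other control libraries. Gdf15 was at 11.215 in control replicate 2 and at 11.256 to 11.263 in the other control libraries, a narrow range. The calls of all 3 genes held without these libraries.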

How the results depend on the processing

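Of the 26 members called, 18 kept their call in all 17 alternatives, and the counts over all 36 genes stayed within 7 to 10 higher and 13 to 17 lower. Small role groups moved more. Among repair genes 3 fell, in place of 4, with no filter, quantile normalization, no variance trend or an adjusted p under 0.01. When a library was left out 3 to 4 repair genes fell, and 4 only without Atad2 shRNA replicate 4. Among feedback genes 1 fell, in place of 2, with no filter and without the variance trend. Among arrest genes 2 fell, in place of 1, with quantile normalization and with the replicate block, and 1 to 2 when a library was left out. Among death genes 1 rose, in place of 2, with no filter, with quantile normalization and at an adjusted p under 0.01, and 1 to 3 rose when a library was left out. Ppm1d, which was never called, ran from -0.05 to 0.0133 when a library was left out, above 0 without control replicate 2. Likewise with a library left out, the log2 fold change of Cdkn1a ran from -0.0312 to 0.0161, above 0 without Atad2 shRNA replicate 3 or control replicate 4. The replicate numbers showed no sign of pairing the libraries (correlations of same-numbered deviations from the group means between -0.0227 and 0.0336, and 1 of 4 Atad2 shRNA libraries correlating best with its own number). The labels do not say whether these numbers pair the libraries, and the correlations cannot settle it. With the replicate block 10 members rose and 17 fell, Plk2 being added (limma adjusted p = 0.0394). No scaling moved the median of all genes by 0.1 on the log2 scale, but quantile normalization moved the 5 members with a mean level above 13 by -0.109 to -0.0956 and the 5 members below 9 by 0.237 to 0.444. The causes of these shifts were not tested. Depth limits Perp, at 4 to 45 reads in the Atad2 shRNA libraries.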
